A study of Mus musculus with 4 samples.

Results

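The cells described here are epithelial cells from mouse lung tumours with high levels of Dlk1, Bpifa1 or both. A cell entered when it held at least 2000 UMIs (unique molecular identifiers, one per counted transcript molecule) and at most 20% mitochondrial UMIs. It had to hold at least 2 UMIs of Epcam, Cdh1, Krt8, Krt18 and Cldn18 together and none of Ptprc, Cdh5 or Col1a2, which mark leukocytes, endothelium and fibroblasts. Among those epithelial cells, members had at least 20 UMIs of Dlk1 and Bpifa1 together per 10000 UMIs, under 10 of Rbp4, Agr2 and Phgr1 and under 5 of Lyz1 and Retnla. Members were thus chosen by their measured levels of these genes. The rule found 1562 members among 15189 epithelial cells and 29367 cell barcodes. Because the rule reads Dlk1, Bpifa1 and 13 other genes, and because the contrast of members with other cells was made by it, every difference between members and other epithelial cells below is a description and not a test.

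Dlk1 encodes a membrane protein with EGF-like repeats that is related to the Notch ligands and is best known for holding back the maturation of fat-cell precursors. It lies in an imprinted domain, where only the paternal copy is read, beside the long non-coding RNA gene Meg3, which is read from the maternal copy. Bpifa1 encodes a secreted protein of the BPI fold family that coats the airway surface and is made there by secretory cells and glands. Dlk1 is known from fetal lung and from endocrine and neuroendocrine tissue, whereas Bpifa1 belongs to the upper airway, and neither is a usual marker of adult alveolar cells.

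Both genes and Dcpp1, the gene with the largest excess in members after the genes of the rule, are shown by the 250 bases before their annotated starts, to let the sequence around the starts of the rule's pair and of the first gene outside it be read beside the levels. The sequences come from RefSeq on GRCm38.p6, plus strand, 5′ to 3′. Capitals mark matches on either strand to 5 strings. For forkhead factors these were TGTTTAC and, as its variant, TATTTAC. For NK2 homeobox factors CAAGTG was searched. The HNF4 string was CAAAGTCCA. For the TATA box the letters were TATAAA. Dlk1 spans chr12:109452823-109463336 and Bpifa1 chr2:154142880-154149219. The windows are chr12:109452573-109452822 for Dlk1, chr2:154142630-154142879 for Bpifa1 and chr17:23880626-23880875 for Dcpp1.
Dlk1: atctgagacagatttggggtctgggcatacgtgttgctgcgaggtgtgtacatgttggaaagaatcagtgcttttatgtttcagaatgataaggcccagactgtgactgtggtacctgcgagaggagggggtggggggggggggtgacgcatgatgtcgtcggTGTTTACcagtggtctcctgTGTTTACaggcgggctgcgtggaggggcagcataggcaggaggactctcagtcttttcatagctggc
Bpifa1: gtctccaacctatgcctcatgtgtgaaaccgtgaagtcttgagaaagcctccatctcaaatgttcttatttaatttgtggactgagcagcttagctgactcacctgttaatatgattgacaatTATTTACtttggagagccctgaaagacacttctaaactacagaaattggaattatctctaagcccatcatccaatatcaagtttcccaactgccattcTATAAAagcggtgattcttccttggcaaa
Dcpp1: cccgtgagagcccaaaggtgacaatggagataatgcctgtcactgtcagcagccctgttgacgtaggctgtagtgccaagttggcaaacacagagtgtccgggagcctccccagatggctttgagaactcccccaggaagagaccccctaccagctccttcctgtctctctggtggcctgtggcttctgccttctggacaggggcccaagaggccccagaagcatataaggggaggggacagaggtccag

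The Dlk1 window held TGTTTAC at 2 places, and 3.17% of 32851 such windows in the same set held it at all. In the Bpifa1 window TATTTAC matched 1 time and TATAAA 1 time. These letters occurred in 2.73% and 12.4% of all windows. Neither window held CAAGTG or CAAAGTCCA, which occurred in 11.6% and 0.384% of all windows, and the Dcpp1 window held none of the 5 strings. A match describes the letters only.

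The series describes the mice of both arms as KPH, whereas the titles call the vehicle libraries KP and those given tamoxifen KPH. The genotype field gives all 4 libraries the same alleles, among them p53frt, a Flp-activated CreERT2 at Rosa26 and Hnf4aflox. Tumours were started by adenovirus carrying FlpO under a mouse surfactant protein C promoter, and dosing with tamoxifen or vehicle began 10 weeks after this. Cells were collected 2 weeks after that, from macroscopic tumours of a number and of animals that the labels do not give. Part of every suspension was set aside as it was. From the rest, leukocytes (CD45-positive) and endothelial cells (CD31-positive) were taken out on magnetic beads. Which of the epithelial cells are tumour cells was not determined here. All portions were frozen, thawed and sorted for live single cells. The 4 groups hold 1 library each, so there is no replicate check, no p-value was computed, and a difference between the arms cannot be told apart from a difference between animals or tumours. The libraries held from 92644997 to 144994771 UMIs. Values by library are given in the order vehicle before depletion, vehicle after depletion, labelled tamoxifen before depletion and labelled tamoxifen after depletion. Levels are CPM (counts scaled to a common total) of the UMIs summed over a class in a library. All intervals are 95% intervals for counting error only.

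Hnf4a, the gene that tamoxifen was meant to delete, went against the label. It encodes a nuclear receptor of liver, gut and pancreas. In members it stood at 21.2, 28.3, 118 and 109 CPM, and in other epithelial cells at 55.8, 56.9, 74.97 and 75.6 CPM. In both classes it was therefore higher, not lower, with the tamoxifen label, and within members the log2 ratio to vehicle was 2.42 before and 1.91 after depletion. Epithelial cells without a Dlk1 or Bpifa1 UMI, and under the other limits of the rule, had 43.8, 50.9, 38.4 and 58.0 CPM of Hnf4a. There the arms differed in no common direction. Since the kit counts transcripts at their 3′ ends, the presence of the floxed exons cannot be read from these values. The arms are named by their labels throughout, and no direction below is one of Hnf4a deletion.

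Members made up 5.62% (49 of 872, exact Clopper-Pearson interval 4.19 to 7.36), 5.19% (330 of 6357, 4.66 to 5.77), 13.9% (128 of 922, 11.7 to 16.3) and 14.99% (1055 of 7038, 14.2 to 15.8) of epithelial cells. The share was thus alike before and after depletion within an arm, and 2.47 times (before) and 2.89 times (after) as high in the libraries labelled tamoxifen. The intervals of the arms did not overlap, but they hold counting error of cells only. With 1 library per group they cannot tell a difference of the arms from one of animals or tumours. Cells high in Rbp4, Agr2 and Phgr1 went the other way, with 8.94%, 15.5%, 3.58% and 4.90% of epithelial cells. The share of cells high in Lyz1 and Retnla was 13.3%, 9.80%, 4.77% and 4.99%. Since the classes of a library sum to a whole, these are not independent of one another.

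**Figure D1:**
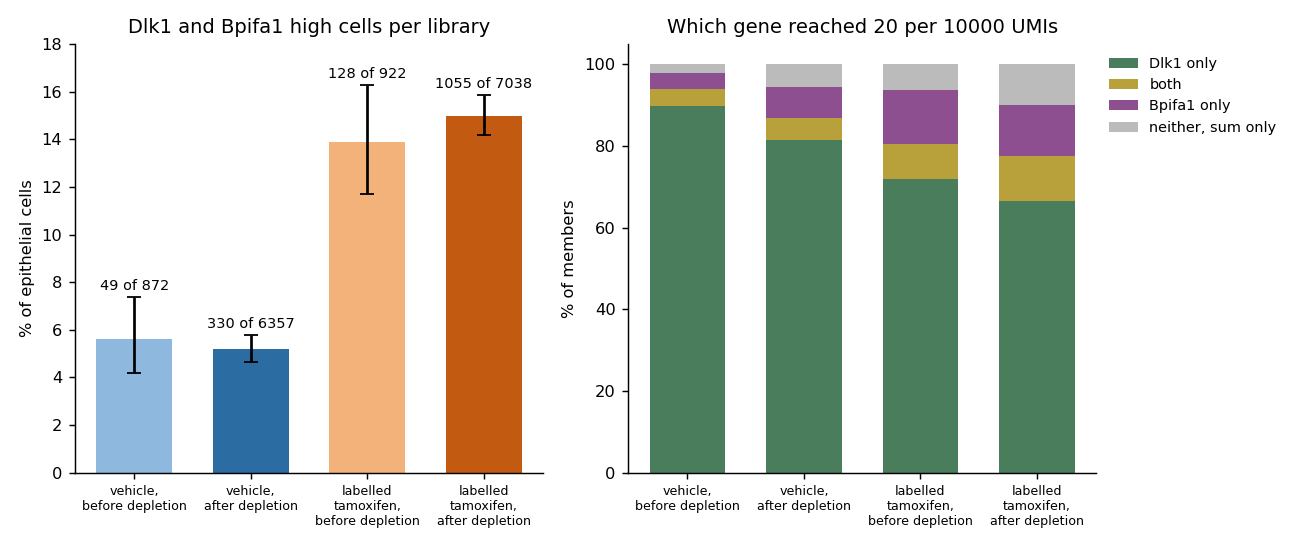
Left, members as a percentage of epithelial cells in each library, with exact Clopper-Pearson 95% intervals as bars and the counts above them. The 2 vehicle libraries sit at 5.62% and 5.19% and the 2 labelled tamoxifen at 13.9% and 14.99%. Right, the members of each library divided by which gene alone reached 20 per 10000 UMIs. The Dlk1-only part is 89.8% and 81.5% with vehicle and 71.9% and 66.5% with the tamoxifen label.

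Most members were carried by Dlk1. Per 10000 UMIs the median member held 32.2, 30.5, 37.3 and 30.2 Dlk1 UMIs, and 0, 1.12, 3.38 and 3.92 of Bpifa1. No Bpifa1 UMI was seen in 51.0%, 36.1%, 26.6% and 24.9% of members. Dlk1 alone reached 20 in 89.8%, 81.5%, 71.9% and 66.5% of members, and Bpifa1 alone in 4.08%, 7.58%, 13.3% and 12.5%. Both reached it in 2, 18, 11 and 116 cells, and in 1, 18, 8 and 105 cells only the sum did. The set named after a pair of genes was therefore mainly a Dlk1 set in every library, with a larger Bpifa1 part in the libraries labelled tamoxifen.

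The threshold ran through a continuum. The lowest members of the libraries stood between 20.02 and 20.2 summed UMIs per 10000, and the highest cells that failed only this condition between 19.88 and 19.95. Between 20 and 25 lay 5, 62, 20 and 168 members. Between 15 and 20 lay 10, 120, 22 and 197 cells that were not members.

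**Figure D2:**
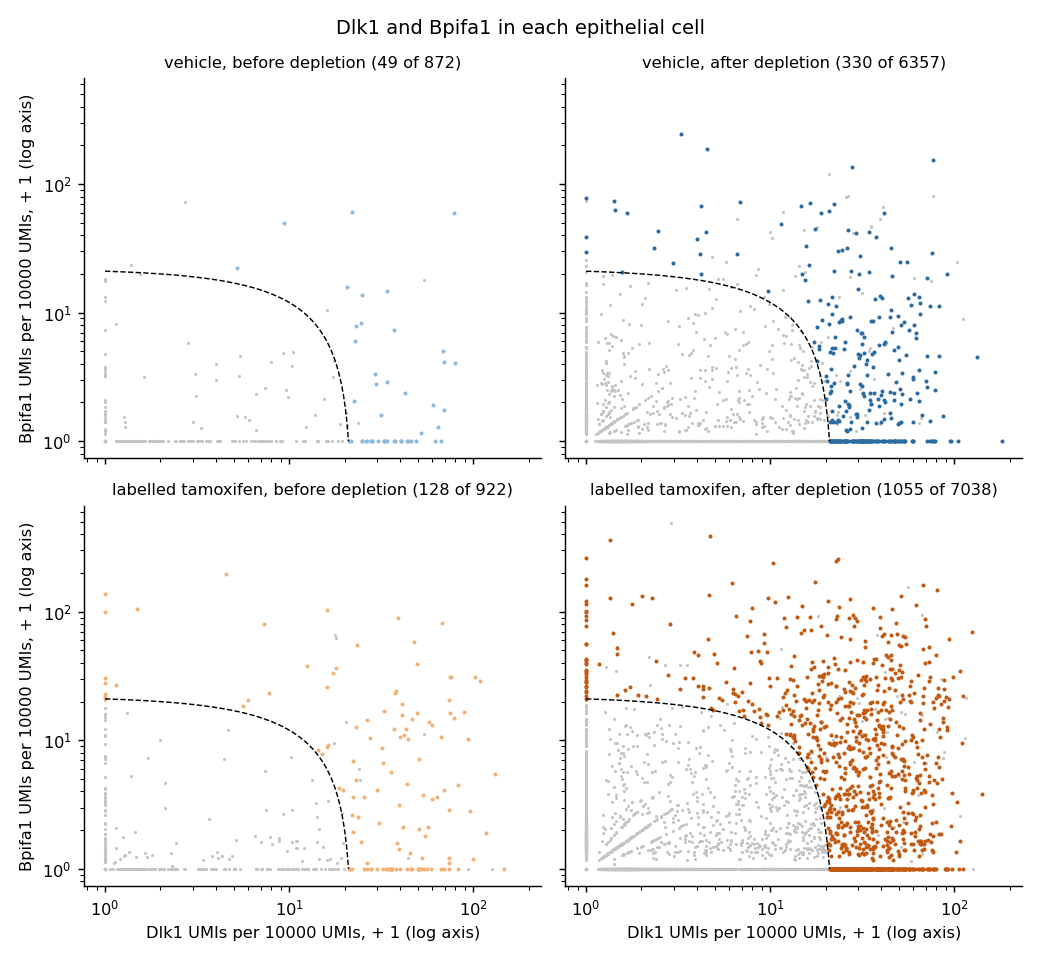
Each point is an epithelial cell of the library in the panel title, with Dlk1 on the x axis and Bpifa1 on the y axis, both as UMIs per 10000 UMIs plus 1 on log axes. Coloured points are members, grey points other epithelial cells, and the dashed line is a sum of 20. Many members lie along the bottom, with no Bpifa1 UMI (51.0%, 36.1%, 26.6% and 24.9%), and no gap separates members from the rest. Grey points beyond the line failed the condition on Rbp4, Agr2 and Phgr1 or that on Lyz1 and Retnla.

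Dlk1 and Bpifa1 nonetheless occurred in the same cells. After each epithelial cell was thinned to 2000 UMIs, Bpifa1 was seen in 17.5%, 18.4%, 31.7% and 30.5% of cells with a Dlk1 UMI, and in 1.99%, 3.26%, 5.97% and 7.04% of cells without one. Both were seen in 2.41%, 3.32%, 7.48% and 8.78% of epithelial cells. The product of the separate shares would give 0.568%, 1.08%, 2.85% and 3.97%. Free RNA can place a UMI in a cell that does not express the gene. Endothelial cells were taken as those with at least 1 Cdh5 UMI, no Ptprc or Col1a2 UMI and under 2 of the epithelial genes. In these cells, also thinned, Dlk1 was seen in 0 of 118, 3 of 105, 0 of 127 and 5 of 94. A count of 0 among 118 allows up to 3.08%, and the others gave 2.86% and 5.32% after depletion. Bpifa1 was seen in 0, 0, 0 and 3 of these cells, and in 3.04%, 4.21%, 5.42% and 7.25% of epithelial cells outside the members. In cells with a Ptprc UMI, whatever their epithelial genes, Dlk1 was seen in 1.25%, 36.2% (17 of 47), 3.85% and 46.4% (26 of 56). Bpifa1 was seen in 0.600%, 17.0%, 1.55% and 32.1% of them. After depletion the shares in these few Ptprc-positive cells thus exceeded those in epithelial cells outside the members. Of these 47 and 56 cells, 3 and 15 met the members' conditions apart from that on Ptprc, Cdh5 and Col1a2. The class thus does not measure background alone. Both genes were seen less often in the endothelial cells than in epithelial cells outside the members, in each library. How much of the low shares outside the members is background was not tested. The median depths of the Ptprc-positive cells were 8927.5, 25142, 9562 and 20316.5 UMIs. The thinned share in epithelial cells outside the members was 8.63%, 13.9%, 12.7% and 17.4%, with median depths of 21859, 18121, 24010.5 and 15716 UMIs before thinning against 12327, 7930, 10055 and 7296 in the endothelial cells.

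The Dlk1 level is given over all epithelial cells and within each class. The rule reads Dlk1 and Bpifa1 and puts a floor under their sum in members, so the values by class are a description of how the rule divides the signal. Over all epithelial cells Dlk1 stood at 425 CPM with vehicle and 1075 with the tamoxifen label before depletion, and at 418 and 915 after it. Within members the levels were 3741 and 4207 CPM before and 3540 and 3405 after, log2 ratios of 0.17 and -0.06. In other epithelial cells the levels were 133 and 293 CPM before and 200 and 313 after, log2 ratios of 1.13 and 0.64. Members held 71.2%, 55.2%, 78.2% and 72.4% of the epithelial Dlk1 UMIs. Bpifa1 within members stood at 730, 862, 1557 and 1580 CPM, log2 ratios of 1.09 before and 0.87 after depletion, and in other epithelial cells at 61.7, 67.7, 75.5 and 107 CPM.

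Before the gene programme, the quality of the cells is given. Members were deeper than other epithelial cells, with medians of 38543, 24136.5, 42701.5 and 23057 UMIs. Their median mitochondrial share was 3.39%, 2.62%, 3.59% and 3.62%, against 4.44%, 3.01%, 4.05% and 3.79% in the others. A doublet score of at least 0.25 was held by 0, 7, 0 and 23 members, or 0%, 2.12%, 0% and 2.18%, against 0.122%, 1.08%, 0% and 1.64% of the others. Any pair of libraries shared from 10 to 18 barcodes, and only 1 shared barcode was a member in both libraries of a pair. The markers of other cell types were compared as summed levels, given as the range over the 4 libraries. The 16 macrophage genes summed to 571 to 951 CPM in members and 497 to 874 in the others, and the 13 endothelial genes to 77.4 to 91.0 and 76.5 to 90.8. The 10 neutrophil genes gave 10.3 to 54.7 and 18.05 to 59.4 CPM. For the 14 mesenchymal genes the ranges were 53.4 to 112 and 80.1 to 143 CPM. The 14 lymphocyte genes, which include immunoglobulin transcripts, summed to 75.4, 17.5, 73.5 and 22.4 CPM in members against 1429, 23.5, 1869 and 23.2 in the others. Ptprc was at 0 in both classes by the gate, and Cd3e and Marco had no UMI in members of 3 libraries. The part of these transcripts in the differences below was not tested. With each cell thinned to 2000 UMIs, the count given below of 28 higher and 133 lower genes was 36 and 119, of which 18 and 85 were among the 28 and 133.

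The gate itself stopped some candidates. Among cells that met the epithelial genes and the Dlk1 and Bpifa1 conditions, 14, 9, 55 and 35 were left out for a UMI of Ptprc, Cdh5 or Col1a2, mostly Ptprc before depletion (12 and 54 cells). Admitting cells in which these UMIs were at most 10% of the epithelial ones gave shares of 5.48%, 5.20%, 14.4% and 15.2%. The condition on Rbp4, Agr2 and Phgr1 removed 5, 72, 11 and 76 cells that passed the Dlk1 and Bpifa1 threshold.

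How members lay among other epithelial cells in the genes outside the rule was described by nearest neighbours. Cells were thinned to 5000 UMIs, the 15 genes of the rule were set aside, and the 15 nearest neighbours of each cell were found on 2000 variable genes. Members' neighbours were members in 41.6%, 43.6%, 55.0% and 54.1% of cases, against 4.33%, 3.18%, 8.56% and 8.30% for other cells. The member share among the cells used was 5.66%, 5.39%, 14.2% and 15.6%. A member's neighbours were therefore members 7.35, 8.08, 3.86 and 3.48 times as often as the share alone gives. That share counts cells high in Rbp4, Agr2 and Phgr1 or in Lyz1 and Retnla, which cannot be members. Genes that go with those programmes but lie outside the rule were kept. The part of this in the ratios was not tested.

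The programme that accompanied the genes of the rule was short. Of 8714 genes with at least 10 CPM in either class in every library, members exceeded the others by 2-fold or more in all 4 libraries for 28 (0.321%) and fell short by as much for 133 (1.53%), together 1.85%, on log2 of CPM plus 1. This is a rule of size. The median log2 ratio over all 8714 genes was 0.04, 0.01, 0.02 and 0.01. More genes passed the fold within a single library, from 117 higher and 271 lower in the library labelled tamoxifen after depletion to 295 and 456 in vehicle before depletion, the library with only 49 members.

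The gene that ranked first among the higher genes was Dcpp1. This secreted demilune and parotid gland protein stood at 1506, 3534, 2937 and 2763 CPM in members and at 265, 300, 167 and 287 CPM in others, log2 ratios of 2.50, 3.55, 4.13 and 3.26. Its level varied more than 2-fold among the members of the vehicle arm alone, and its near-identical neighbours Dcpp2 and Dcpp3 make the division of reads among them uncertain. Dmkn, which encodes the secreted epidermal protein dermokine and was among the markers given for these cells, stood at 1151, 1130, 1169 and 908 CPM against 302, 345, 303 and 350. The 4 member values lay close together, and none overlapped the other cells. Mdk encodes midkine, a heparin-binding growth factor of fetal tissue. Its levels were 183, 175, 119 and 142 CPM against 20.2, 25.2, 26.6 and 36.6. The collagen gene Col14a1 was at 33.6, 65.7, 42.3 and 30.1 CPM against 5.18, 5.66, 5.00 and 6.18, and Col18a1, the precursor of endostatin, at 227, 289, 257 and 230 against 83.2, 88.8, 93.4 and 105. Both collagens were higher in members. Col1a1 stood at 0.516, 0.796, 0.557 and 0.343 CPM in them. The gate admitted only cells without a Col1a2 UMI, which favours a low Col1a1 level, so these values say nothing about the source of the other collagens.

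Pf4 encodes the chemokine platelet factor 4. It stood at 318, 413, 1139 and 992 CPM in members against 112, 109, 190 and 223 in others, so it was higher in members in each library and higher again with the tamoxifen label. Cd177, a surface protein best known from neutrophils, was at 52.7, 88.2, 110 and 73.8 CPM against 13.7, 22.0, 8.39 and 13.5. The neutrophil calcium-binding genes S100a8 and S100a9 did not move with it. They were at 7.74, 1.02, 7.42 and 0.763 CPM and at 11.9, 0, 11.1 and 0.153 CPM in members, against 6.95, 0.689, 6.12 and 0.498 and 9.81, 0.103, 13.02 and 0.738 in others. Other leading genes were Lrp1b, an endocytic receptor, at 114, 92.2, 76.8 and 102 CPM against 20.7, 19.5, 21.4 and 28.3, and the peptide hormone gene Apln at 25.8, 24.8, 22.3 and 17.7 against 5.63, 3.90, 4.40 and 5.36. Tdo2, which starts the breakdown of tryptophan, was at 60.4, 63.5, 69.9 and 59.3 CPM against 9.58, 14.6, 16.9 and 19.6. The other 10 of the 20 leading genes were Prr16, Adamts18, Cyp1b1, Hs6st3, Selenom, Amph, Itih2, Ogfrl1, Sertad4 and Cers4, with log2 ratios from 1.12 to 2.25 over the libraries. For the metalloprotease gene Adamts18 the lowest of the 4 ratios changed sign, to -2.94, when cells were thinned to 2000 UMIs. Sums over thinned members are small, with only 49 members in the vehicle library before depletion. Such a value can come from few or 0 UMIs and the pseudocount, so no direction is drawn from it.

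**Figure D3:**
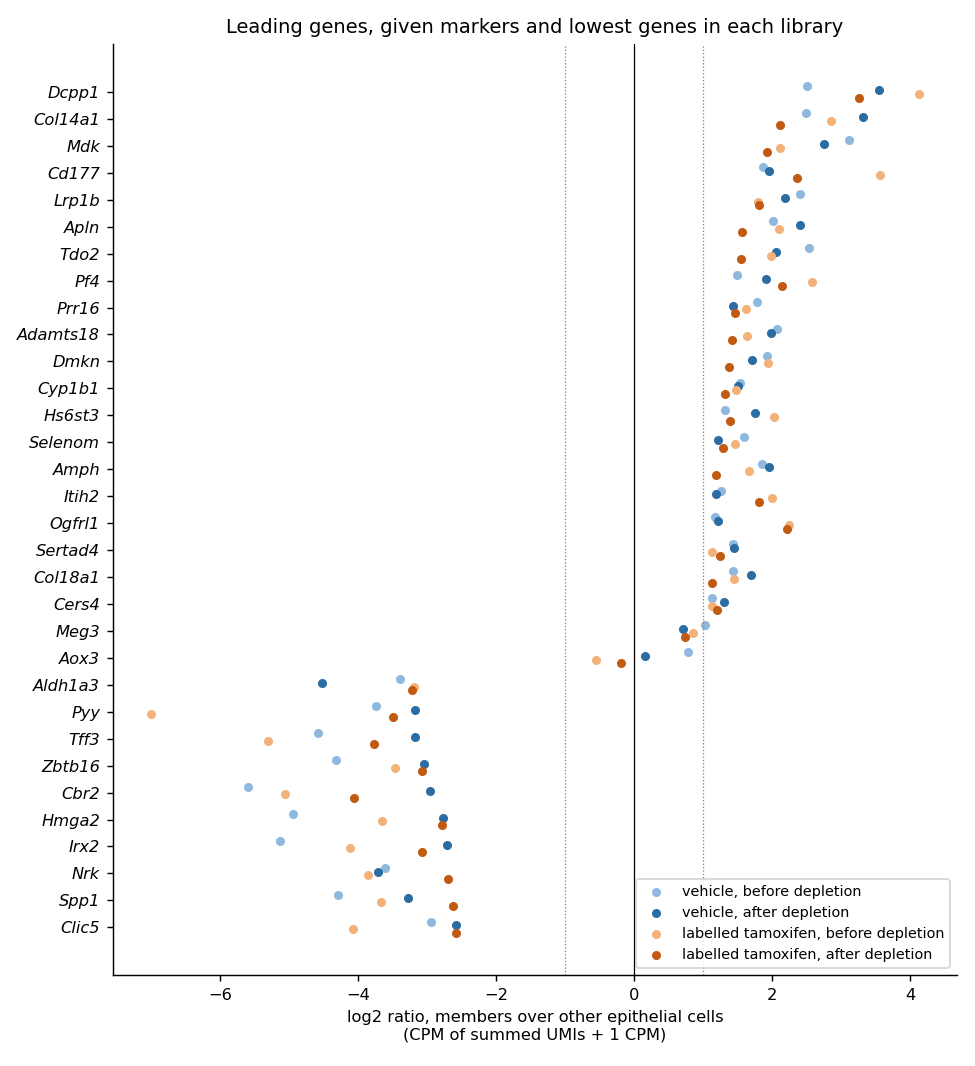
Points are log2 ratios of members over other epithelial cells (CPM of summed UMIs plus 1 CPM), 1 point per library, for the 20 leading genes, Meg3 and Aox3, and the 10 lowest genes. Dotted lines mark 2-fold. The 20 upper genes lie to the right of 1 in each library and the 10 lower ones to the left of -1, as the rule of size requires. Meg3 lies between 0.70 and 1.02, and Aox3 falls on both sides of 0, from 0.79 to -0.55.

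Of the markers given for these cells, Dmkn held in all 4 libraries, Meg3 in part and Aox3 did not. Meg3, the maternally read non-coding RNA of the Dlk1 domain (chr12:109541001-109571726, plus strand, GRCm38), stood at 2844, 2710, 2348 and 2237 CPM in members against 1400, 1663, 1299 and 1341 in others. Every member value exceeded every other value, but the log2 ratios of 1.02, 0.70, 0.85 and 0.74 reached 2-fold in 1 library only. Aox3, an aldehyde oxidase, was at 323, 172, 114 and 143 CPM in members against 187, 154, 169 and 163. It was thus higher in members with vehicle and lower with the tamoxifen label, by log2 ratios of 0.79, 0.16, -0.55 and -0.19.

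The other genes of the Dlk1 domain lay in the same direction as Meg3. All 4 genes of that list with enough UMIs, Meg3, Rian, Mirg and Rtl1, were higher in members in each library, and none passed 2-fold in all 4 libraries. Dlk1 itself was set aside as a gene of the rule. Rian, a non-coding RNA that hosts small nucleolar RNAs, had log2 ratios of 1.25, 0.70, 1.13 and 0.73. Mirg, a host of microRNAs, had 1.10, 1.04, 1.05 and 0.71, and Rtl1, a paternally read gene derived from a retrotransposon, 0.83, 0.36, 0.83 and 0.56. The list's median log2 ratio was 1.06, 0.70, 0.95 and 0.72, beside 0.04, 0.01, 0.02 and 0.01 over all genes. Without stated use of strand, reads of Rtl1 and of its antisense partners cannot be told apart. The remaining imprinted genes showed no such common direction. Of 11 considered from a list of 24, 1 was higher and 1 lower in members in all libraries, and none passed 2-fold.

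Dmkn followed the summed Dlk1 and Bpifa1 level up to its highest values, whereas Meg3 of the vehicle libraries did not. Over cells outside the Rbp4, Agr2 and Phgr1 and the Lyz1 and Retnla programmes, Meg3 stood at 974, 1020, 1060 and 1075 CPM where neither gene was seen. At 10 to 20 per 10000 it was 3252, 3090, 2135 and 2011 CPM, and at 80 and over it was 2388, 2482, 2484 and 2462. With vehicle the highest bin thus lay below the membership threshold, and with the tamoxifen label it was the last. In the vehicle library before depletion the bin at 10 to 20 holds 23 cells and that at 80 and over 3 cells. Dmkn went from 212, 191, 173 and 189 CPM to 713, 587, 491 and 441 at 10 to 20, and to 1750, 1498, 1537 and 1365 at 80 and over. Cells with no UMI of either gene were also shallower. Those in the vehicle library before depletion had a median of 18067.5 UMIs, against 33518.5 or more in the bins with a UMI up to 20 per 10000.

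**Figure D4:**
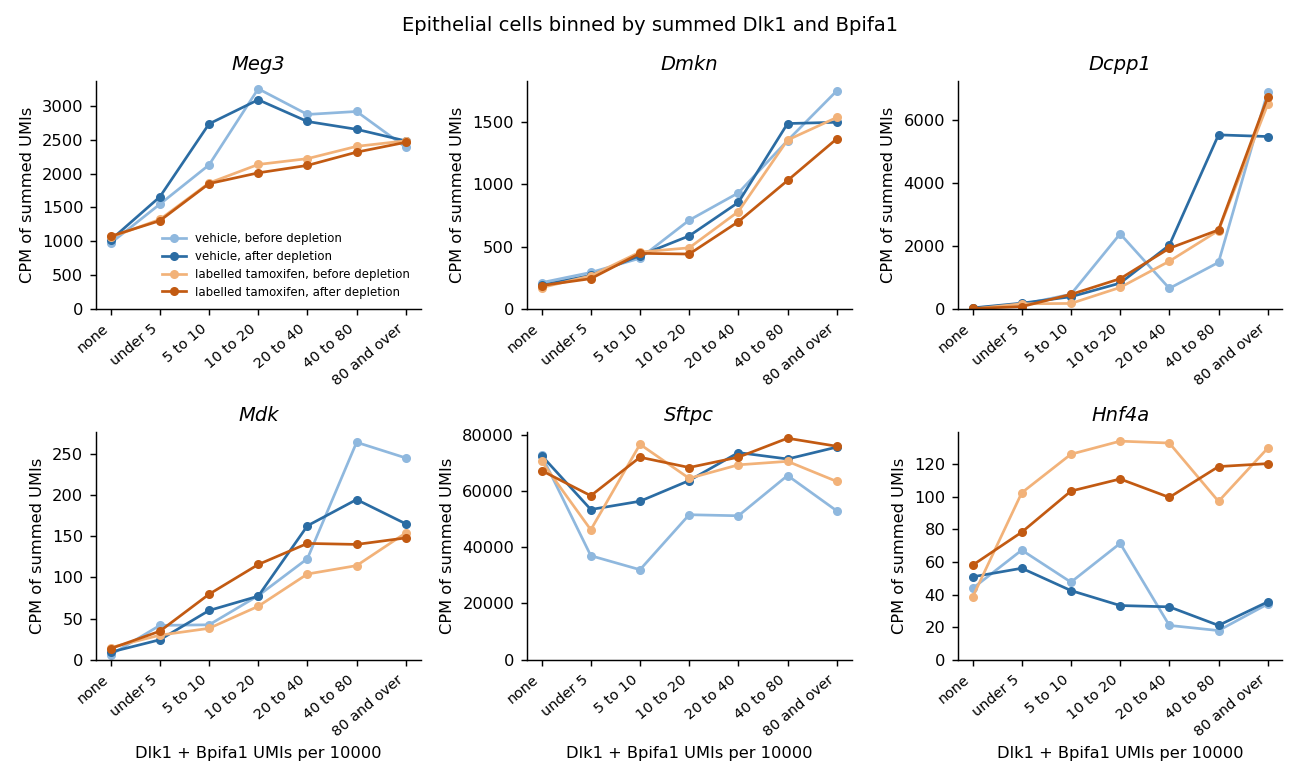
CPM of summed UMIs of 6 genes (y axis, from 0) in epithelial cells binned by their summed Dlk1 and Bpifa1 UMIs per 10000 (x axis), 1 line per library. Members are the 3 bins from 20 upwards. Dmkn is highest at 80 and over in each library, Meg3 of the vehicle libraries is highest at 10 to 20 (3252 and 3090 CPM), Sftpc has no common direction, and Hnf4a is low in the vehicle members and high in those labelled tamoxifen.

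Members had the alveolar surfactant genes at the level of other cells and a part of the alveolar type 1 and transitional genes at lower levels. Sftpc, the surfactant protein that defines alveolar type 2 cells and whose promoter drove FlpO, stood at 56296, 72894, 68568 and 74982 CPM in members against 64860, 65757, 65339 and 67410, log2 ratios between -0.20 and 0.15. Sftpb lay between 0.08 and 0.23. Of 19 alveolar type 2 genes, 0 were 2-fold higher and 4 lower, beside 0.321% and 1.53% of all genes. These were Lyz2, Scd1, Hc and S100g. In this and the following list counts the other cells include those high in Rbp4, Agr2 and Phgr1 or in Lyz1 and Retnla. The rule keeps such cells out of the members, and their part in the list counts was not tested. Lyz2, which encodes lysozyme, stood at 926, 1125, 642 and 582 CPM against 5660, 4215, 4014 and 3476, and its close paralog Lyz1 belongs to the rule, so the 2 may share reads. Scd1, a fatty acid desaturase, was at 166, 82.3, 46.8 and 67.8 CPM against 852, 440, 647 and 491.

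Among the type 1 genes, 5 of 13 considered were 2-fold lower and 0 higher, again beside 1.53% and 0.321% of all genes. Rtkn2 stood at 3.61, 5.46, 4.82 and 9.77 CPM against 51.9, 26.9, 71.7 and 54.7. Hopx, a homeodomain-only protein of type 1 cells, was at 18.6, 32.1, 20.8 and 27.3 CPM against 99.4, 88.9, 146 and 90.7. The water channel gene Aqp5, Clic5 and Akap5 were the others. The list's median log2 ratio was -1.20, -0.93, -1.21 and -1.06. In the transitional list, which gathers genes of injury-associated alveolar cells, 6 of 17 were lower and 0 higher, against the same shares. The 6 were Krt7, Lgals3, Ndrg1, Itga2, S100a6 and F3. Krt7, a keratin of simple ducts, was at 156, 237, 196 and 183 CPM against 459, 604, 576 and 574. S100a6 was at 317, 581, 507 and 555 CPM against 2316, 3027, 2140 and 2377. The list's median was -1.10, -1.22, -0.94 and -1.01.

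Of 25 airway secretory genes, 11 were considered over all members, most of which were led by Dlk1. None of these 11 was 2-fold higher in members, and Scgb1a1, Msln and Cbr2 were lower, beside 0.321% and 1.53% of all genes. The members led by Bpifa1 are described on their own below. Scgb1a1, the club cell secretoglobin, stood at 2.07, 11.04, 9.83 and 22.1 CPM in members against 20.5, 380, 41.5 and 573. Epithelial cells outside the Rbp4, Agr2 and Phgr1 and the Lyz1 and Retnla programmes stood at 18.9, 29.7, 40.7 and 44.0 CPM. Cbr2, a carbonyl reductase of club cells, was at 6.20, 29.5, 4.64 and 11.1 CPM against 348, 237, 188 and 200.

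The counts of the other lists stand beside 0.321% higher and 1.53% lower among all genes. Gastrointestinal genes had 0 of 10 considered higher and 2 lower, Tff1 and Tff3. Epidermal barrier genes had 1 of 15 higher, Dmkn, and 1 lower, the surface antigen gene Ly6a, at 1.55, 10.1, 14.8 and 7.60 CPM against 26.7, 40.6, 37.4 and 39.1. Neural and hormone genes had 1 of 3 higher, Adamts18, and 1 lower, the gut peptide gene Pyy. The lowest ratio of Adamts18 changed sign under thinning, with the limit on few UMIs given above. None passed among 20 immediate early, 11 p53 target, 7 class II antigen presentation and 3 interferon genes considered. Jun and Fos, which respond to handling of the cells, stood at 1634, 1910, 1800 and 1949 CPM and at 2600, 2781, 2646 and 2534 CPM in members, against 1333, 1731, 1538 and 1843 and 1987, 2335, 2315 and 2539 in others.

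Among the lowest genes, Aldh1a3, which makes retinoic acid, ranked first by its smallest ratio over the libraries, at 3.61, 0.910, 2.60 and 3.32 CPM against 47.7, 42.7, 31.9 and 39.1. Hmga2, a chromatin protein of embryonic and advanced tumour cells, was at 1.55, 9.33, 2.41 and 5.61 CPM against 77.3, 69.4, 42.2 and 44.3. The transcription factor gene Zbtb16 was at 1.55, 1.59, 1.30 and 1.49 CPM against 49.9, 20.5, 24.4 and 19.98. The homeobox gene Irx2 had no UMI in vehicle members before depletion, which allows up to 1.55 CPM and is at least 21.9-fold lower than the other cells there, and was at 1.93, 0.186 and 0.992 CPM in the members of the other 3 libraries. Other epithelial cells had 33.9, 18.3, 19.5 and 15.7 CPM of it. Spp1, which encodes osteopontin, was at 18.1, 36.9, 10.6 and 52.5 CPM against 372, 365, 146 and 331. Pyy, Tff3, Nrk and Clic5 completed the 10.

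Since cells high in Rbp4, Agr2 and Phgr1 or in Lyz1 and Retnla cannot be members, the comparison was repeated without them. Against epithelial cells outside both, 19 of the 20 leading genes stayed at 2-fold in all libraries, the exception being Cers4, and 9 of the 10 lowest did. The exception was the trefoil factor gene Tff3. Its level in those cells was 0.0630, 4.06, 0.0521 and 5.03 CPM, so its deficit lay against the Rbp4, Agr2 and Phgr1 or Lyz1 and Retnla high cells.

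Dlk1 resembles the Notch ligands, but only 5 of the 21 genes of the Notch list had enough UMIs to be considered. Of these 5, 0 passed in either direction, beside 1.85% of all genes, and the median log2 ratio was -0.01, -0.21, -0.05 and -0.25. Hes1, a target of Notch signalling, stood at 88.3, 80.8, 112 and 87.7 CPM against 97.5, 93.8, 119 and 104. Beside 1.53% and 0.321% of all genes, 1 (Hmga2) of 20 lineage transcription factors considered was lower and none higher at 2-fold. Sox9, a factor of distal lung progenitors, came near it, at 93.5, 82.2, 98.3 and 93.0 CPM against 49.3, 46.9, 40.9 and 51.7, with log2 ratios of 0.91, 0.79, 1.24 and 0.83. Nkx2-1, the lung lineage factor, was at 310, 238, 232 and 214 CPM against 253, 201, 264 and 227. In the MAPK output list 1 of 16 (Fosl1) was lower, beside 1.53% of all genes. In the Wnt list 2 of 6 (Wnt7a and Nkd1) were lower, beside the same share.

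Of the cell cycle lists, none of 10 G2/M and 12 S-phase genes passed in either direction, beside 1.85% of all genes. At 2000 UMIs per cell, at least 2 G2/M UMIs were seen in 14.3% (7 of 49, 5.94 to 27.2), 6.36% (3.98 to 9.56), 6.25% (2.74 to 11.9) and 6.07% (4.70 to 7.68) of members. The shares in others were 4.62% (3.29 to 6.28), 4.10% (3.61 to 4.63), 6.17% (4.60 to 8.08) and 4.43% (3.92 to 4.98). The share was higher in members in each library, the intervals of members and others overlapped in every library, and the largest difference rested on 7 cells. The intervals treat cells as independent, so neither overlap nor its absence is a test. At least 2 S-phase UMIs were seen in 14.3% (5.94 to 27.2), 20.3% (16.1 to 25.1), 9.38% (4.94 to 15.8) and 12.9% (10.9 to 15.1) of members. In others the shares were 13.4% (11.1 to 15.9), 14.0% (13.1 to 14.9), 12.7% (10.5 to 15.2) and 11.6% (10.8 to 12.4). The S-phase intervals did not overlap in the vehicle library after depletion, where members were higher, and overlapped in the other 3. This too is a description.

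Members led by Dlk1 and members led by Bpifa1 differed from each other. With the portions of an arm pooled, 313 Dlk1-led cells were set against 27 Bpifa1-led cells with vehicle and 794 against 149 with the tamoxifen label. Of 8837 genes, 31 (0.351%) were at least 2-fold higher in Dlk1-led cells in both arms and 65 (0.736%) in Bpifa1-led cells. Scgb3a2, a secretoglobin of airway and early lung epithelium, stood at 458 and 245 CPM in the Bpifa1-led cells against 28.9 and 26.7 in the Dlk1-led cells, vehicle first. Spink5, a protease inhibitor of squamous epithelium, was at 75.1 and 179 CPM against 13.1 and 10.8. Dcpp2 and Dcpp3 were also higher there, at 62.4 and 64.2 CPM against 15.4 and 14.3, and at 14.2 and 12.1 against 0.896 and 1.47. The Dlk1-led cells had more Cd177, at 92.2 and 95.03 CPM against 12.8 and 21.6, and more Gsto1, a glutathione transferase, at 50.4 and 54.6 against 12.8 and 13.9. Aox3 followed the same division after depletion, at 387 and 412 CPM in Bpifa1-led cells against 152 and 89.8 in Dlk1-led cells. Dmkn divided less, with 711 and 883 CPM against 1155 and 911.

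The arms were compared within members and, separately, within other epithelial cells. By the same fold in both pairs, 104 of 9047 genes (1.15%) were higher with the tamoxifen label and 126 (1.39%) lower. Under TMM scaling the split was 132 higher and 95 lower, and under median-of-ratios scaling 126 and 99. These scalings moved the median of all genes by 0.14 and 0.13 on the log2 scale in the pair before depletion. In other epithelial cells 22 of 8989 (0.245%) were higher and 73 (0.812%) lower. After those cells' summed UMIs were thinned to the depth of the members, the counts were 20 and 67, together 0.97% of genes, beside 2.54% in members. The number of cells was not matched (49 members and 823 others in the vehicle library before depletion), and whether the counts of the classes differ was not tested. Of the genes higher within members, 7 were also higher in the others (6.73% of the members' list and 31.8% of the others'), and of the lower genes 23 (18.3% and 31.5%). Both pairs come from the same 2 suspensions. The make-up of the other epithelial cells also differed between the arms. Cells high in Rbp4, Agr2 and Phgr1 were 8.94%, 15.5%, 3.58% and 4.90% of all epithelial cells. Those high in Lyz1 and Retnla were 13.3%, 9.80%, 4.77% and 4.99%. The part of this in the values of the other epithelial cells was not tested.

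Liver and detoxification genes were among those higher in members with the tamoxifen label. Of 6 hepatic genes considered, Alb, Apoa1 and Ahsg were at least 2-fold higher in both pairs and none lower, beside 1.15% and 1.39% of all genes. In other epithelial cells Alb and Apoa1 were at least 2-fold lower. Apoa1, the main protein of high-density lipoprotein, stood at 4.65, 18.8, 53.2 and 47.9 CPM in members and at 47.5, 63.2, 21.0 and 15.7 in others. Alb, which encodes serum albumin, stood at 10.3, 24.7, 41.7 and 52.0 CPM in members and at 66.3, 88.7, 19.3 and 31.8 in others. The direction in members was thus opposite to that in the other epithelial cells, taken as 1 class, for both genes. Ahsg, the liver glycoprotein fetuin-A, was at 0.516, 0.228, 13.5 and 10.6 CPM in members. At under 10 CPM in both vehicle groups, it was considered only through the arm where it was higher. It could thus be called only in that direction, and the same held for Apoa1 in the pair before depletion. The list's median log2 ratio to vehicle was 1.39 and 0.95 in members and -0.08 and -0.36 in others, beside -0.06 and -0.01 over all genes in members.

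From the oxidase and xenobiotic list, 4 of 17 were higher in members with the tamoxifen label and none lower, beside 1.15% and 1.39% of all genes. In other epithelial cells 2 of 20 were higher (Cyp1b1 and Fmo2) and 2 lower (Cyp2s1 and Fmo1), beside 0.245% and 0.812%. Gsta3, a glutathione transferase, stood at 32.5, 40.4, 139 and 154 CPM in members against 35.9, 48.2, 55.6 and 67.3 in others. Gsta4 was at 89.3, 138, 236 and 286 CPM, the flavin monooxygenase gene Fmo2 at 91.4, 53.5, 222 and 211 (59.4, 59.3, 138 and 141 in others) and the cytochrome P450 gene Cyp2c40 at 17.6, 15.4, 59.4 and 70.1. Close relatives in the Gsta and Cyp2c families make the reads of single members of these families uncertain.

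The largest differences of all were in single genes of varied function. Cpe, the carboxypeptidase that trims peptide hormones, stood at 5.16, 5.92, 101 and 111 CPM in members and 17.2, 19.04, 31.2 and 48.8 in others. Its log2 ratio to vehicle was 4.05 and 4.02 in members and 0.83 and 1.31 in others. Htra4, a serine protease, was at 1.03, 2.16, 26.2 and 26.8 CPM, the transcription factor gene Onecut2 at 1.55, 1.02, 20.8 and 20.1 and the junction protein gene Jam2 at 6.20, 5.12, 55.3 and 44.8. Hs3st3a1, a heparan sulfate sulfotransferase, had no UMI in vehicle members before depletion, which allows up to 1.55 CPM, and stood at 0.910, 17.997 and 14.3 CPM in the other 3. Lower with the tamoxifen label were the scaffold genes Magi2, at 140, 117, 8.16 and 8.28 CPM, and Grip1, at 65.6, 74.4, 3.53 and 5.30. The transcription factor gene Trps1 was at 98.6, 73.3, 7.24 and 5.38 CPM, with Smim6, Kctd8 and Chn2 following. In the other epithelial cells Magi2 stood at 23.6, 22.0, 6.49 and 7.16 CPM, Grip1 at 18.2, 13.4, 6.30 and 9.31 and Trps1 at 25.02, 16.2, 6.95 and 5.90. Members thus stood above other cells in both vehicle libraries for these 3 genes, and near or below them with the tamoxifen label.

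**Figure D5:**
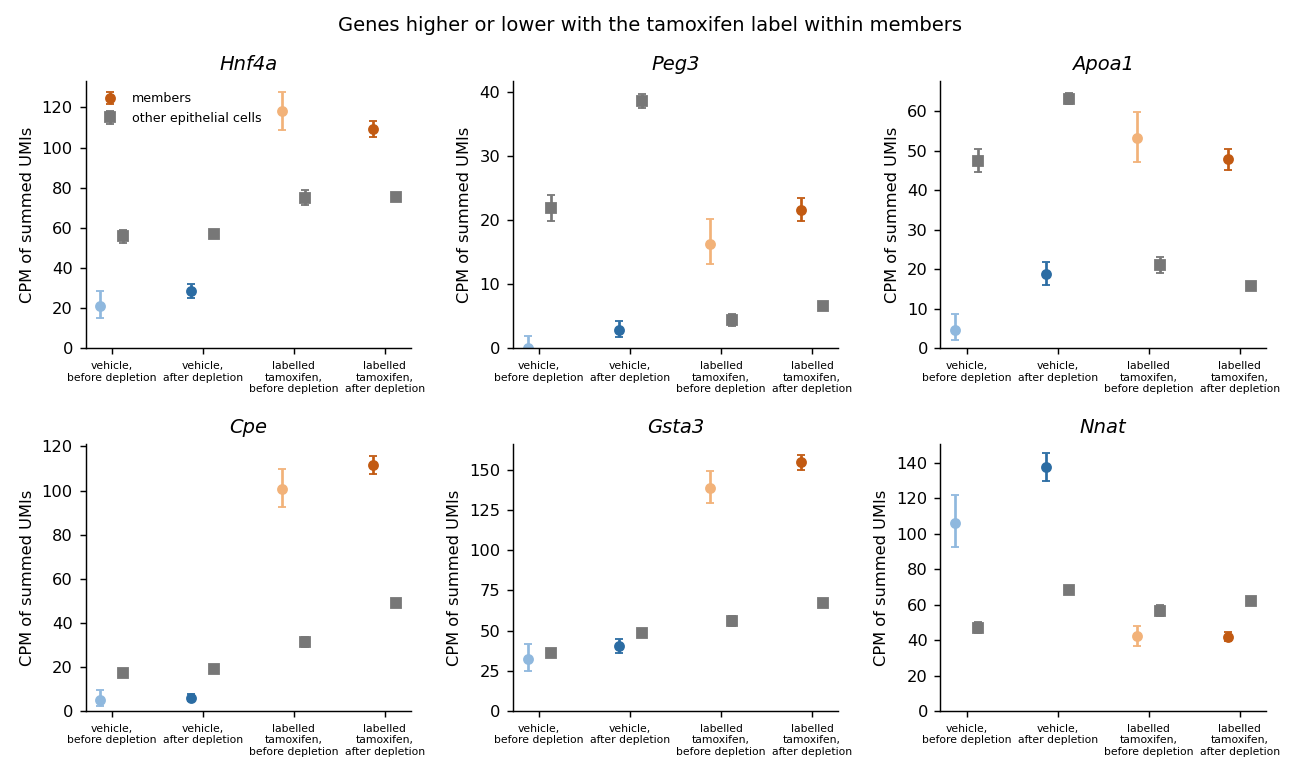
CPM of summed UMIs (y axis, from 0) in each library for members (coloured circles) and other epithelial cells (grey squares), with exact Poisson 95% intervals as bars. Hnf4a, Peg3, Apoa1, Cpe and Gsta3 are higher in the members of both libraries labelled tamoxifen than in vehicle members, and Nnat is lower. For Peg3 and Apoa1 the other epithelial cells as a class go the opposite way, and the make-up of that class differs between the arms.

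Of 11 imprinted genes outside the Dlk1 domain considered within members, Peg3 and Sgce were higher with the tamoxifen label, and Cdkn1c and Nnat lower, beside 1.15% and 1.39% of all genes. In other epithelial cells 3 of 12 passed, with Dcn higher and Peg3 and Cdkn1c lower, so Cdkn1c was lower with the tamoxifen label in both classes. Peg3, a paternally read zinc finger gene, had no UMI in vehicle members before depletion (up to 1.55 CPM, at least 14.1-fold lower than other cells there) and stood at 2.84, 16.3 and 21.5 CPM in the other 3 member groups. In other epithelial cells it was at 21.8, 38.6, 4.36 and 6.56 CPM, the reverse order. Sgce, which encodes a sarcoglycan, was at 6.20, 9.33, 29.7 and 28.3 CPM in members. The cell cycle inhibitor gene Cdkn1c was at 80.5, 123, 19.3 and 17.1 CPM in members and 69.3, 97.8, 33.2 and 30.6 in others, and Nnat, neuronatin, at 106, 137, 42.1 and 41.9 in members. Meg3 was not part of this. It differed between the arms by log2 ratios of -0.28 and -0.28 within members.

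Of 8714 genes, 3 (0.0344%) were at least 2-fold higher in members than in other cells in both libraries labelled tamoxifen and at least 2-fold lower in both vehicle libraries. They were Peg3, Apoa1 and Cpe, and no gene did the reverse. The rule for them was added after values had been seen, and the difference between the arms was not tested.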

How the data were processed

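Single-cell RNA was measured in 4 libraries of mouse lung tumour cells with the 10x Genomics 3′ kit. The values deposited by the authors are raw UMI counts. Cell Ranger 7.0.1 stands in the matrices' header lines, per the file headers, whereas the submitters' processing notes name Cell Ranger 7.2.0 and mm10. Which annotation was used, and whether intronic reads or strand were taken into account, is not given in the sources used here. Of 32289 features, 32158 matched GENCODE M21, which supplied coordinates. Among the features, 4 are not mouse genes and were left out of the named genes.

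Membership followed the rule stated in the report. UMIs were summed per class and library and scaled to CPM, and ratios are log2 of CPM plus a pseudocount of 1. A gene counted as apart with at least 10 CPM in either class of each library and a 2-fold difference of 1 sign in all 4 libraries (members against others) or in both pairs (tamoxifen label against vehicle). A gene can thus be considered only through the class or arm where it is high. It can then be called only in that direction, which bears on the counts of short lists. With 1 library per group there is no test. The pre- and post-depletion libraries of an arm are portions of 1 set of suspensions and do not replicate each other. On simulated counts the rule recovered 4% of 2-fold and 100% of 3-fold changes in the first comparison (8511 genes). In the second (8950 genes) it recovered 18% and 98%. It made 0 calls among unchanged genes in both. Variation between animals or tumours cannot be estimated from 1 library per group. The simulation thus gives neither a false-call rate nor a recovery rate for the genes called in the measured libraries. Shares carry Clopper-Pearson intervals and CPM exact Poisson intervals. Counts of 0 are given the limit of 3 counts. Doublets were scored with Scrublet in scanpy 1.11.5 (expected rate 0.06). Its automatic threshold called 205, 4, 102 and 0 cells, so it had not worked after depletion, and no cell was removed. Removal at a score of 0.25 was an alternative.

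The named genes are the 20 highest and 10 lowest in members, ranked by the smallest ratio over libraries, the 6 highest and 6 lowest between arms, Hnf4a, the given markers, and from each gene list those with the highest level or the exceptions. Genes of the rule, mitochondrial, ribosomal, immunoglobulin and sex-linked genes and genes without a symbol were left out. The members, the gene lists and the tests were chosen with earlier results of these data known. Of 30 lists, those not described in the report had at most 2 genes past the rule of size in either direction. Alternatives covered thresholds, filters, scaling, pseudocount, doublets, thinning and leaving out libraries.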

Additional observations from a re-analysis of the deposited data

Results flagged for a closer look

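For 12 genes, members stood above other epithelial cells in both libraries of one arm and below them in both libraries of the other, with the counting-error interval of each ratio excluding 0. These 12 are among 88 genes looked at, which were named or listed above with some chosen for this pattern. Over all 8714 genes considered, 180 (2.07%) met the same condition. The difference between the arms was not tested. All values are log2 ratios of members over other epithelial cells, in the order vehicle before and after depletion, then labelled tamoxifen before and after depletion.

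Lower in vehicle members and higher in those labelled tamoxifen were Peg3 (-4.51, -3.36, 1.69 and 1.57), Apoa1 (-3.10, -1.70, 1.30 and 1.55), Alb (-2.57, -1.80, 1.08 and 0.69) and Cpe (-1.56, -1.53, 1.66 and 1.18). The first Peg3 value comes from 0 UMIs and the pseudocount, and at the limit of a count of 0 it would be -3.16. Hnf4a had -1.36, -0.98, 0.65 and 0.53. Sgce had -1.67, -1.06, 0.27 and 0.24, and the glutathione transferase gene Gsta4 -0.50, -0.52, 0.81 and 0.69. The stress-responsive factor gene Cebpd had -0.35, -0.25, 0.26 and 0.23.

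The reverse held for Nnat (1.16, 0.99, -0.42 and -0.56), Dcn, a proteoglycan of connective tissue (1.22, 0.70, -0.57 and -0.13), Aox3 (0.79, 0.16, -0.55 and -0.19) and Nkx2-1 (0.29, 0.24, -0.18 and -0.087).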

How the results depend on the processing

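No paired analysis was possible because the result comes from no test: each arm and portion holds 1 library, and the contrast of members with others, though taken within each library throughout, is fixed by the rule. The member share was moved by the threshold. At 10 or more per 10000 UMIs it was 8.26%, 9.34%, 19.6% and 21.3%, and at 40 or more 2.18%, 2.25%, 8.24% and 7.47%. With Bpifa1 alone it was 0.459%, 0.676%, 3.04% and 3.52%. With Dlk1 alone it was 4.51% in vehicle after depletion and 11.2% and 11.6% in the libraries labelled tamoxifen. Without the condition on Rbp4, Agr2 and Phgr1 the shares after depletion were 6.28% and 16.1%, and thinning to 2000 UMIs gave 14.0% in the library labelled tamoxifen after depletion. The ratio of the arms lay from 2.09 to 6.62 before and from 2.28 to 5.21 after depletion over these 14 alternatives.

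The count of genes higher in members, 28, was 18 with a pseudocount of 5 CPM, 2 at a log2 ratio of 2 and 50 with means over cells. The count of lower genes, 133, was 252 without a CPM minimum, 64 at 30 CPM and 26 at a log2 ratio of 2. Leaving out 1 library gave 34 to 41 higher and 147 to 157 lower genes. Between the arms, the 104 higher genes were 165 without a CPM minimum, 59 at 30 CPM and 18 at a log2 ratio of 2, and the 126 lower genes 249, 57 and 22, and 76 with a pseudocount of 5 CPM. The cause was not tested. TMM and median-of-ratios scaling both moved the median log2 ratio of all genes by -0.11 between members and others in the vehicle library before depletion. Of 688 values of named genes under alternatives, 653 kept direction and side of the fold, 34 fell below it, and the Adamts18 value under thinning reversed, at -2.94. That value can rest on few or 0 UMIs and the pseudocount. The relaxed gate and the counts in Dlk1-led members alone (27 and 122 between members and others, 107 and 141 between arms) were alternatives chosen after seeing the data. Depth limits the vehicle library before depletion most, with 49 members.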
